A study of Cavia porcellus with 12 samples.

Results

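The genes described here encode the proteins of the cytosolic ribosome. They are the 54 of 11896 gene symbols of the deposited expression table that carry a ribosomal protein name, 34 of the large (60S) and 20 of the small (40S) subunit. Names were matched by RPL or RPS with a number, an optional A, X, Y or L and an optional last digit, with RPLP0, RPLP1, RPLP2 and RPSA added by name. Liver RNA came from 12 female Dunkin Hartley guinea pigs, 10 weeks old on arrival, of which 6 controls (healthy, chow) and 6 animals with NASH (high-fat diet with added sucrose and cholesterol) were sampled after 25 weeks on diet. Animals with NASH were chosen for bridging fibrosis, whereas controls were drawn at random from chow-fed animals without NASH or fibrosis. The tissue was whole liver from the left lateral lobe that had not been perfused, so a change in RNA per cell and a change in cell number cannot be told apart.

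A ribosome is made of ribosomal RNA and about one copy of each ribosomal protein, with the small subunit reading the mRNA and the large subunit forming the peptide bond. The mRNAs of these proteins start with a terminal oligopyrimidine (TOP) tract, through which mTORC1 and the RNA-binding protein LARP1 adjust their translation and stability together. In liver, ribosome supply bears on the making of plasma proteins and on growth after injury, and several of these genes are used as reference genes in quantitative PCR. An mRNA level does not give the number of ribosomes.

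Of a fixed list of 77 core ribosomal proteins, 50 were among the 54 genes, 31 of 46 for the large and 19 of 31 for the small subunit. The other 27 were not found under their plain symbol and are not among the 54. For 3 of them the table has a row with a suffixed symbol outside the naming rule, namely RPS16.1, RPS20.1 and RPS10.NUDT3, with log2 fold changes of −0.12, 0.010 and −0.057, none of them called. The remaining 4 genes are paralogues. RPL3L is the striated-muscle counterpart of RPL3, RPL26L1 a close copy of RPL26, RPS27L a p53-responsive copy of RPS27, and RPL7L1 a relative of RPL7 that acts in the assembly of the large subunit. Of the 54 genes, 48 had a count row of their own. The other 6 shared it with another symbol, RPL3 with SNORD43, RPL7A with SURF2, RPL18 with DBP and MAMSTR, RPL22 with AL031847.2 and RPS18 with B3GALT4 among them, so reads of these pairs could not be separated. Ribosomal protein genes have many processed copies in mammalian genomes, and the authors ignored multimapped reads, so the value of any single gene depends on how much of its sequence is unique. All 54 had passed the authors' minimum of 200 counts over all animals, and the lowest count of any of them in any animal was 53.

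Library totals ran from 16980274 to 28636467 counts (controls) and from 23704607 to 33091460 counts (NASH). The TMM scaling factors of edgeR, which correct for library composition, ran from 0.804 to 0.875 (controls) and from 1.12 to 1.24 (NASH). The 20 largest rows took 21.6 ± 0.49% of the counts in controls and 16.3 ± 0.81% in NASH (SD, n = 6 each). The choice of scaling therefore moved every fold change by a similar amount. Over all 11896 genes, the median log2 fold change was 0.48 on library size alone and 0.0018 with TMM. Levels below are counts scaled to a common library total (CPM) after TMM scaling unless stated, and a gene is said to be called where edgeR's quasi-likelihood test gave a Benjamini-Hochberg adjusted p-value under 0.05 over all 11896 genes. Nothing in the sources used here states a shared litter, cage or sequencing batch, and none was compared. Hepatocyte markers had the highest summed level of the marker lists in both groups, and none of them was at 0 in any animal.

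The ribosomal protein genes together took a larger share of all counts in NASH, whereas their summed level after scaling for library composition overlapped between the groups. Their share was 1.14 ± 0.0954% in controls against 1.62 ± 0.131% in NASH (SD, n = 6 each). Controls lay between 1.02 and 1.27%, with a median of 1.12%, and animals with NASH between 1.40 and 1.79%, with a median of 1.62%. The groups did not overlap in this share, and the ratio of the means was 1.42. This share is not scaled for library composition. On library size alone, the median log2 fold change was 0.48 over all genes and 0.51 over the 54. On that scale 45.6% of all genes were higher in NASH without overlap. After TMM scaling, the summed level was 13409 ± 915 CPM in controls and 13685 ± 861 CPM in NASH (SD, n = 6 each). On this scale controls lay between 12033 and 14469 CPM and animals with NASH between 12055 and 14449 CPM, so the range of NASH fell inside that of controls. No test was run on these sums.

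**Figure D1:**
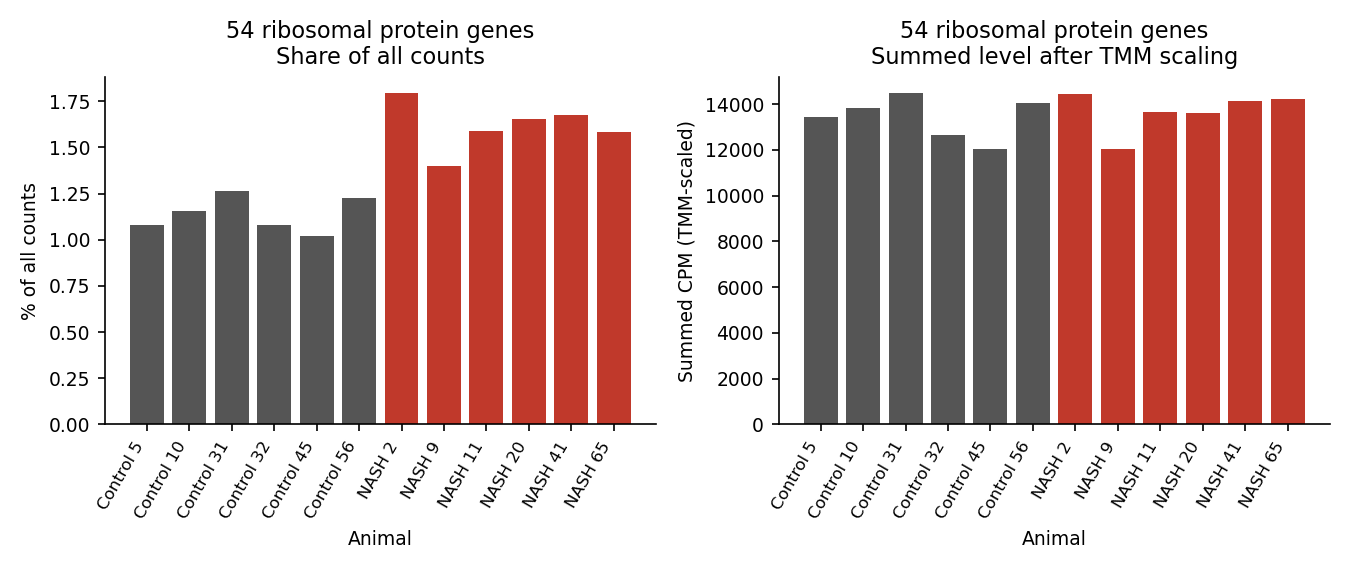
Share of all counts in percent (left) and summed TMM-scaled CPM (right) of the 54 ribosomal protein genes in each animal, controls in grey and NASH in red. On the left all animals with NASH, from 1.40 to 1.79%, exceed all controls, from 1.02 to 1.27%, whereas on the right controls span 12033 to 14469 CPM and NASH 12055 to 14449 CPM.

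With TMM scaling, 6 of the 54 genes were called higher and 5 lower in NASH, and 43 were not called. These were 11.1% higher and 9.26% lower, whereas over all genes tested 27.9% were called higher and 26% lower (53.9% in either direction). The median log2 fold change of the 54 genes was 0.033, or 0.031 above that of all genes (−7.2e-06 without control 45 and 0.063 without NASH animal 9), and 33 of the 54 lay above 0. Of the 50 core genes, 44 had an absolute log2 fold change under 0.25. The standard error of a member was between 0.063 and 0.25 (median 0.078), so changes of a few per cent were not detectable in a single gene. With library size alone, 51 members were called higher and 2 lower (63.9% and 7.66% of all genes), the median being 0.51, which is 0.032 above the value over all genes. On that scale 36 members were higher in NASH without overlap between groups (45.6% of all genes) and none was lower (4.11% of all genes). DESeq2 called the same 6 higher and 5 lower (28.9% and 27.3% of all genes). Only 9 of the 54 had the same call under TMM and under library size alone. The direction was the same under both scalings in 35 members, and 19 were below 0 with TMM and above 0 with library size alone. The calls below are relative to the bulk of genes.

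**Figure D2:**
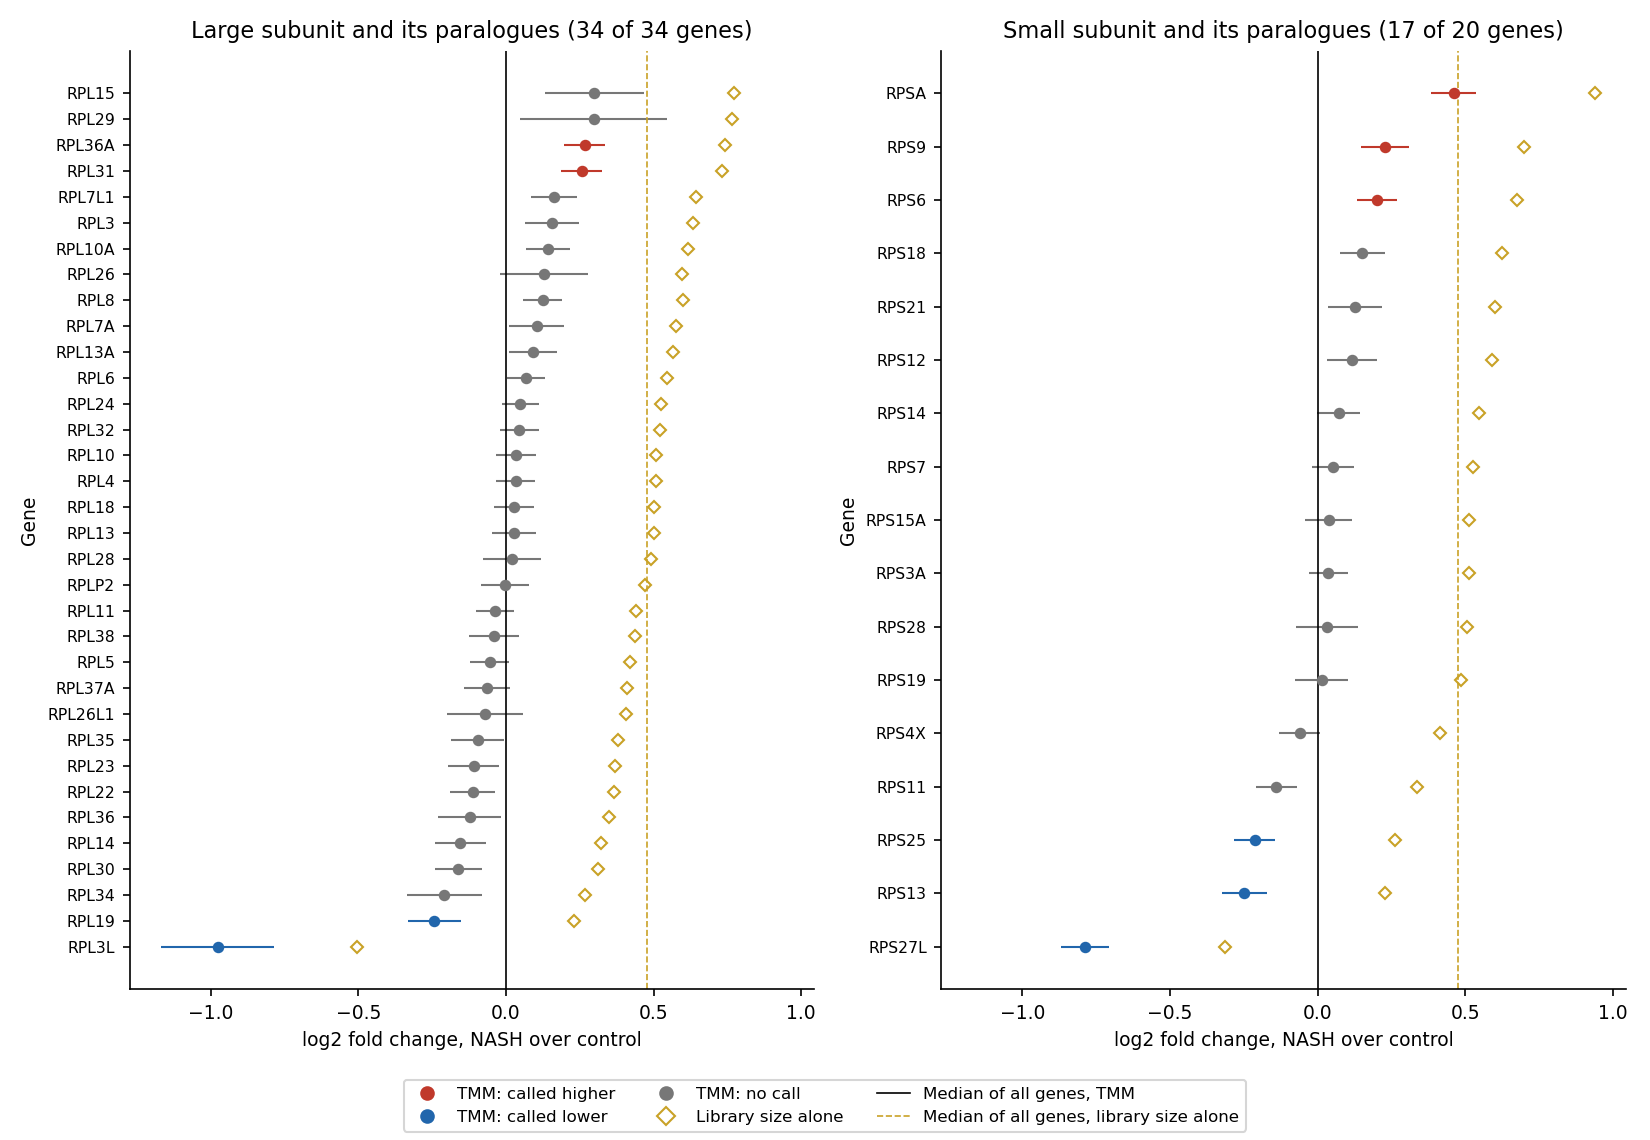
Log2 fold change of 51 of the 54 genes in NASH over controls (6 animals each), large subunit left and small subunit right. Filled circles with bars (standard error) are TMM-scaled values, red where called higher, blue where called lower and grey where not called. Open diamonds are values with library size alone, and the lines mark the median of all genes under either scaling. Most circles lie near the line at 0.0018 and most diamonds near that at 0.48, with RPSA at the upper end and RPL3L and RPS27L at the lower end.

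The subunits moved little against each other. Median log2 fold changes were 0.027 for the 34 genes of the large and 0.045 for the 20 genes of the small subunit, a difference of −0.018 (−0.037 without control 31). In the large subunit 2 genes were called higher and 2 lower, and in the small subunit 4 higher and 3 lower. These are 5.88% and 5.88% of the large and 20% and 15% of the small subunit, where all genes had 27.9% and 26%. Without the paralogues the medians were 0.028 for 31 and 0.052 for 19 genes. Within single animals, the median deviation of the large minus that of the small subunit lay between −0.0064 and 0.047 on the log2 scale in controls and between −0.038 and 0.013 in NASH. These ranges overlapped, and no test was run on the difference.

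Among genes of the small subunit, RPSA rose most. RPSA encodes the ribosomal protein SA of the 40S subunit, known also as the laminin receptor precursor. Its level was between 230 and 269 CPM in controls (median 255) and between 304 and 397 CPM in NASH (median 341). The lowest animal with NASH exceeded the highest control, and RPSA was the one member that was higher without overlap, which 18.4% of all genes were. Its log2 fold change was 0.46 (SE 0.077, 1.38-fold, edgeR adjusted p = 0.000271).

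RPS6, the classic substrate of the S6 kinases downstream of mTORC1, was between 37.7 and 45.1 CPM in controls (median 42.1) and between 43.8 and 55.0 CPM in NASH (median 47.8), with a log2 fold change of 0.20 (SE 0.068, edgeR adjusted p = 0.0237). RPS9, a protein of the decoding subunit, was between 106 and 133 CPM in controls (median 116) and between 119 and 154 CPM in NASH (median 141), a log2 fold change of 0.23 (SE 0.082, edgeR adjusted p = 0.0305). For both genes the groups overlapped. The call of RPS6 was lost without control 45 (edgeR adjusted p = 0.0544) or without NASH animal 11 (0.0542). That of RPS9 was lost without any 1 of 7 animals, namely controls 5, 10, 32 and 45 and NASH animals 2, 41 and 65 (edgeR adjusted p from 0.0521 to 0.0755).

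In the large subunit, RPL36A and RPL31 were called higher. RPL31 lies close to the exit of the peptide tunnel. It was between 234 and 276 CPM in controls (median 257) and between 269 and 343 CPM in NASH (median 311), a log2 fold change of 0.26 (SE 0.070, edgeR adjusted p = 0.00772). RPL36A, a protein near the exit site for transfer RNA, was between 74.1 and 87.8 CPM in controls (median 83.0) and between 87.2 and 108 CPM in NASH (median 96.2). Its log2 fold change was 0.27 (SE 0.070, edgeR adjusted p = 0.00587), and in both genes the lowest animal with NASH was below the highest control. A separate row named for RPL36A read through to HNRNPH2, outside the naming rule, had a log2 fold change of −0.21 (SE 0.093, edgeR adjusted p = 0.0685). The rows RPL18.1 and RPL28.1, also outside the rule, had 0.175 (SE 0.104) and −0.0042 (SE 0.103), and neither was called.

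RPS27L and RPL3L, both paralogues, were the members with the lowest fold changes. RPS27L was between 111 and 150 CPM in controls (median 132) and between 66.2 and 81.8 CPM in NASH (median 78.1). All 6 animals with NASH were below all 6 controls. The log2 fold change of RPS27L was −0.79 (SE 0.082, 1.73-fold lower, edgeR adjusted p = 5.55e-06), the smallest adjusted p-value of the 54 genes. RPL3L was between 3.57 and 7.59 CPM in controls (median 5.12) and between 2.07 and 3.37 CPM in NASH (median 2.84), again without overlap. Its log2 fold change was −0.98 (SE 0.19, 1.97-fold lower, edgeR adjusted p = 0.000869), from counts between 53 and 163. These were the 2 members that were lower without overlap, which 15.3% of all genes were, and both were also called lower with library size alone (log2 fold changes of −0.31 for RPS27L and −0.51 for RPL3L).

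RPL3 itself, which forms part of the floor of the peptidyl transferase centre, had a log2 fold change of 0.16 (SE 0.090, edgeR adjusted p = 0.162) and was not called. It was called higher with upper-quartile factors (edgeR adjusted p = 0.0464) and with every row of at least 1 count in the fit (0.0474). The pair RPL26 and RPL26L1 was at 0.13 (SE 0.15) and −0.070 (SE 0.13), and neither was called. RPL26L1 had 5.36 ± 0.497 CPM in controls and 5.09 ± 0.970 CPM in NASH (SD, n = 6 each). RPL7L1 had a log2 fold change of 0.16 (SE 0.078, edgeR adjusted p = 0.0938), and it was called higher without control 5 (edgeR adjusted p = 0.043), with upper-quartile factors (0.0205) and with every row (0.0312). The parent genes of RPS27L and RPL7L1 were not analysed here.

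RPS13, RPS25 and RPL19, all core genes, were called lower with TMM scaling and higher with library size alone. None of them was called with upper-quartile factors (edgeR adjusted p from 0.0827 to 0.126) or with every row of at least 1 count in the fit (edgeR adjusted p from 0.131 to 0.21). RPS13, a protein of the 40S subunit, was between 134 and 168 CPM in controls (median 158) and between 111 and 138 CPM in NASH (median 130), with a log2 fold change of −0.25 (SE 0.077, edgeR adjusted p = 0.016), and of 0.23 with library size alone. RPS25, which is used by some viral entry sites for initiation, was between 344 and 394 CPM in controls (median 370) and between 272 and 344 CPM in NASH (median 325). Its log2 fold change was −0.21 (SE 0.070, edgeR adjusted p = 0.0201), and 0.26 with library size alone. RPL19, which lies at the exit of the peptide tunnel and reaches across to the small subunit, was between 245 and 338 CPM in controls (median 295) and between 223 and 273 CPM in NASH (median 247). Its log2 fold change was −0.24 (SE 0.088, edgeR adjusted p = 0.0336), and 0.23 with library size alone. In all 3 genes the groups overlapped. The call of RPL19 was lost without any 1 of 6 animals, namely controls 10, 31 and 56 and NASH animals 9, 11 and 20 (edgeR adjusted p from 0.0573 to 0.0752).

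**Figure D3:**
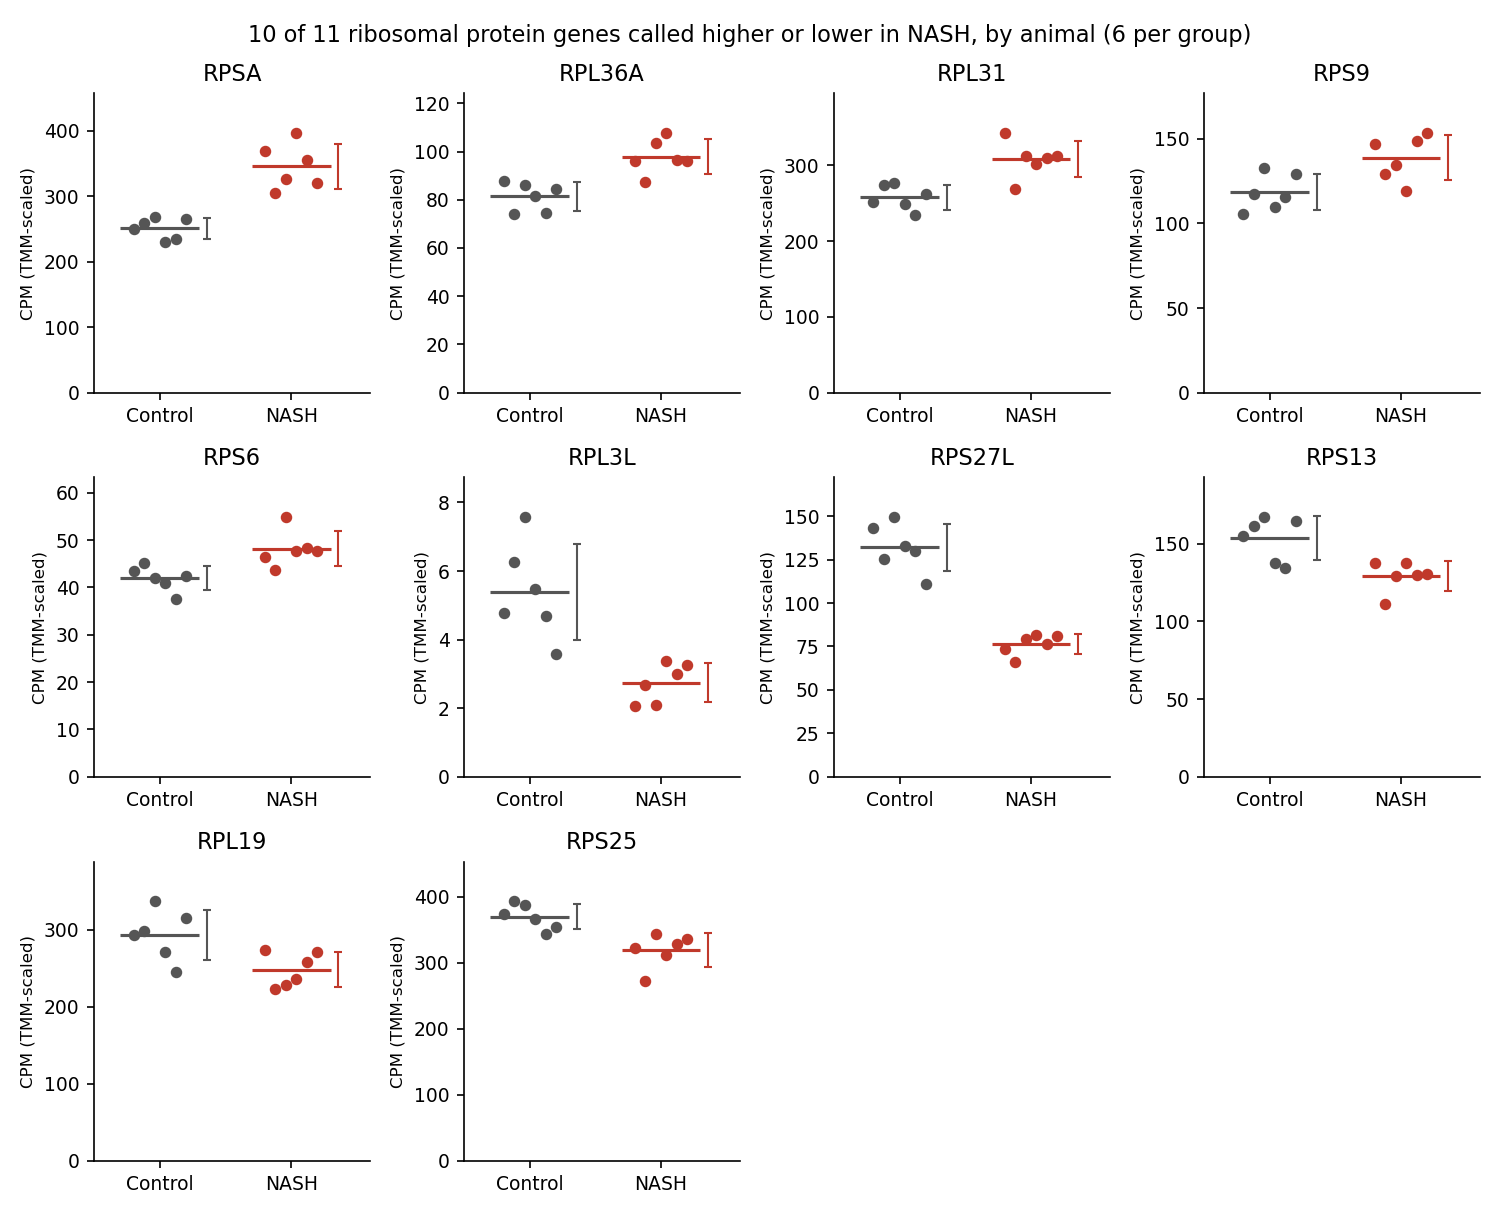
TMM-scaled CPM of 10 of the 11 called ribosomal protein genes in each animal (points), with the group mean (line) and SD (bar), controls in grey and NASH in red. RPSA, at 304 to 397 CPM in NASH against 230 to 269 CPM in controls, is separated upwards, and RPS27L and RPL3L are separated downwards, whereas the groups of the other 7 genes overlap. RPS13, RPS25 and RPL19, lower here, were higher with library size alone.

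Because scaling factors cancel within an animal, each member was also set against the median of all 54 in the same animal. On that log2 scale RPSA moved from 0.00081 ± 0.035 in controls to 0.51 ± 0.11 in NASH (SD, n = 6 each). RPS27L moved from −0.93 ± 0.15 to −1.67 ± 0.084. Without overlap between groups, 11 members were higher (19.3% of all genes, measured against the same median) and 3 were lower (11.3% of all genes). The 11 included RPSA, RPL36A, RPL31, RPS6, RPS18, RPL10A, RPL8, RPL13A and RPL6, and the 3 were RPL3L, RPS27L and RPS13. In the authors' deposited log2 values (rlog), RPSA was the 1 member higher, and RPS27L and RPL3L the 2 lower, without overlap (18.3% and 15.4% of all genes), and the median difference was 0.021 over the 54 genes and 0.0035 over all genes.

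By place in the ribosome, at most 1 member of a group was called in either direction, where all genes had 27.9% higher and 26% lower. Each group held only 1 to 5 genes. Of the P stalk, which recruits the elongation factors, RPLP2 was the 1 of 4 listed genes in the table, with 268 ± 25.1 CPM in controls and 267 ± 22.9 CPM in NASH (SD, n = 6 each). RPL5 and RPL11, which join 5S ribosomal RNA and can bind MDM2, had log2 fold changes of −0.055 (SE 0.067) and −0.036 (SE 0.065), and neither was called. Of 8 listed genes at the exit tunnel, 5 were in the table, with 1 called higher (RPL31) and 1 lower (RPL19). Of 7 listed genes along the mRNA channel, 3 were in the table, none of them called, with RPS14 highest at 0.071.

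Of 7 listed members used as reference genes in quantitative PCR, 5 were in the table. RPL19 and RPS13 were called lower (40%, where all genes had 26%). The others were not called, with log2 fold changes of 0.15 (SE 0.077) for RPS18, 0.092 (SE 0.0815) for RPL13A and 0.046 (SE 0.067) for RPL32. RPL32 was between 247 and 280 CPM in controls (median 264) and between 234 and 285 CPM in NASH (median 280), and its groups overlapped. On library size alone all 5 were called higher, as were 51 of the 54 members and 63.9% of all genes. RPS18 was called higher without NASH animal 9 (edgeR adjusted p = 0.0449), with upper-quartile factors (0.0271) and with every row (0.0299).

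Most members varied little between animals of a group. The median SD within groups was 0.12 on the log2 scale over the 54 genes, against 0.20 over the 9737 genes with mean levels in the same range. That range was wide and held most of the 11896 genes tested, so the comparison does not hold expression level equal. In control 31, 44 of the 54 genes were above their own mean over the 12 animals, and in control 45 only 7 were. In NASH the numbers ran from 5 in animal 9 to 43 in animal 65. With TMM scaling, both groups therefore held an animal in which nearly all members were low. On library size alone, the median deviation of members from their own mean was 0.051 in NASH animal 9. That was above every control (−0.396 to −0.096, the lowest being control 45). Without NASH animal 9, 8 members were called higher and 4 lower, where 6051 of all 11896 genes were called in either direction, and RPL10A (edgeR adjusted p = 0.0466) and RPS18 were the members gained.

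Among core genes, RPL29, RPL15, RPL26 and RPL34 had the widest spread. RPL29, a heparin-binding protein of the large subunit, was at 75.7 CPM in control 10 and 82.6 CPM in control 45 and between 148 and 171 CPM in the other controls. In NASH it was at 94.5 CPM in animal 20 and 116 CPM in animal 41 and between 180 and 205 CPM in the others. Low animals thus occurred in both groups. RPL15 was at 113 CPM in control 10 and 119 CPM in control 32 and between 194 and 211 CPM in the other controls, and between 164 and 239 CPM in NASH. The log2 fold changes of 0.30 for both RPL29 (SE 0.25, edgeR adjusted p = 0.335) and RPL15 (SE 0.17, edgeR adjusted p = 0.153) were above that of RPL36A but not called. RPL26 was at 460 CPM in control 56 and between 279 and 336 CPM in the other controls. In NASH, RPL26 was between 418 and 430 CPM in animals 11, 20 and 65 and between 270 and 319 CPM in animals 2, 9 and 41. RPL34 was between 214 and 340 CPM in controls and between 218 and 297 CPM in NASH, and without control 32 it was called lower (edgeR adjusted p = 0.0461).

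**Figure D4:**
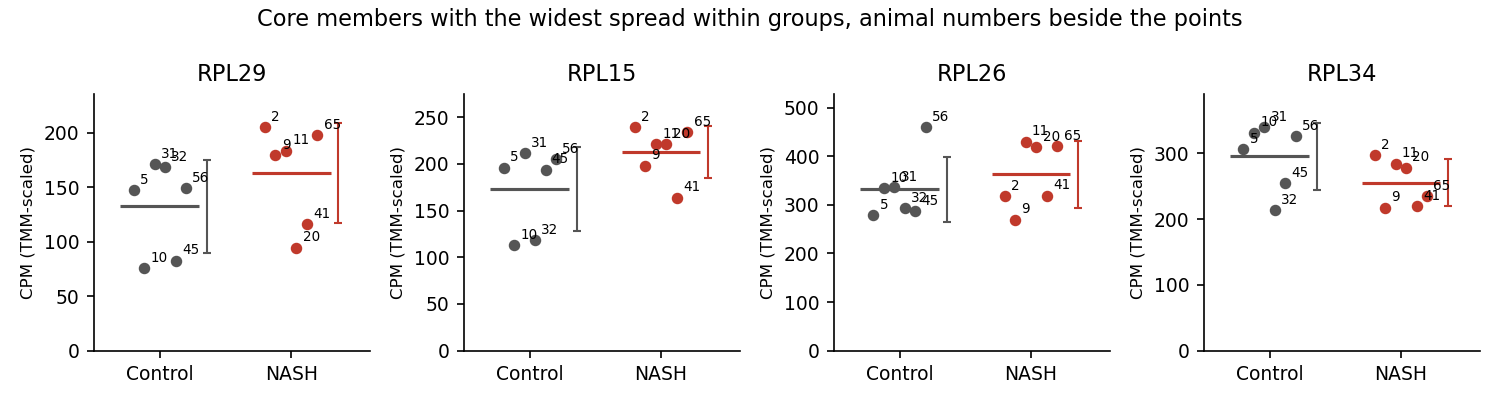
TMM-scaled CPM of the 4 core genes with the widest spread within groups, with the animal number beside each point, the group mean (line) and the SD (bar). In RPL29 controls 10 and 45 and NASH animals 20 and 41 lie apart from the others, and in RPL15 controls 10 and 32 do.

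Other genes of the ribosome and of translation were taken from fixed lists, whose counts stand beside 27.9% higher and 26% lower over all genes with TMM, and 63.9% and 7.66% with library size alone. Of the ribosomal genes outside the naming rule, RACK1, the scaffold protein of the small subunit, was called higher, with a log2 fold change of 0.22 (SE 0.054, edgeR adjusted p = 0.00397). FAU, whose product is cleaved to give RPS30, had −0.15 (SE 0.093, edgeR adjusted p = 0.18). Of 19 other mRNAs with a TOP tract, 12 were in the table, 4 called higher (33.3%) and 3 lower (25%), with a median of 0.0060. On library size alone 10 were called higher and none lower. HNRNPA1, a splicing factor, was highest at 0.56, and EEF1D, a subunit of the elongation factor exchange complex, lowest at −0.23. EEF1A1, which brings transfer RNA to the ribosome, had −0.22 (SE 0.074, edgeR adjusted p = 0.025), and with library size alone EEF1A1 and EEF1D were called higher.

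Of 43 listed genes of RNA polymerase I and ribosome assembly, 38 were in the table, 10 called higher (26.3%, where all genes had 27.9%) and 2 lower (5.26%, against 26%), at a median log2 fold change of 0.11. On library size alone, 35 were called higher and none lower (63.9% and 7.66% of all genes), with a median of 0.58. MYC, a transcription factor that drives ribosome production, had the highest value, 2.41 (SE 0.23, edgeR adjusted p = 3.26e-06). The assembly factors RRP9 (0.65), RRP12 (0.52) and NOP56 (0.34, on a row with SNORD56 and SNORD86) and the nucleolar protein NCL (0.25) were also called higher. SBDS, which helps to release EIF6 from the 60S subunit, was called lower at −0.33 (SE 0.065, edgeR adjusted p = 0.00081), but was at 0.14 and not called with library size alone. TAF1D was lowest at −0.61, on a row that it shares with small nucleolar RNAs.

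Of 26 listed initiation factors, 22 were in the table, 1 called higher (4.55%) and 7 lower (31.8%, where all genes had 26%), with a median of −0.12. EIF4G3 was highest at 0.77 and EIF2B3, a subunit of the exchange factor of EIF2, lowest at −0.45, or 0.024 with library size alone, under which 19 were called higher and none lower. Of 15 listed genes of mTORC1 and LARP1, 12 were in the table, 1 called higher (8.33%) and 3 lower (25%, where all genes had 26%). On library size alone 8 were called higher and none lower. SESN2 was highest at 0.28, and DDIT4 lowest at −1.26 (SE 0.43, edgeR adjusted p = 0.024). EIF4EBP2, a repressor of initiation, was called lower at −0.64. Neither DDIT4 (edgeR adjusted p = 0.102) nor EIF4EBP2 (edgeR adjusted p = 0.296) was called on library size alone. MTOR itself (−0.091) and LARP1 (−0.16) were not called.

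The proteins of the mitochondrial ribosome, which are encoded in the nucleus and translated by cytosolic ribosomes, gave other values. Of 72 such genes in the table, none was called higher and 52 were called lower (72.2%, where all genes had 27.9% higher and 26% lower), at a median log2 fold change of −0.32. They ranged from −0.80 for MRPL43 to 0.27 for MRPL52, whose row also carries MMP14. On library size alone 18 were called higher and 2 lower (63.9% and 7.66% of all genes), with a median of 0.15, which is 0.32 below that of all genes, where the cytosolic set was 0.032 above it. No test was run between the sets.

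**Figure D5:**
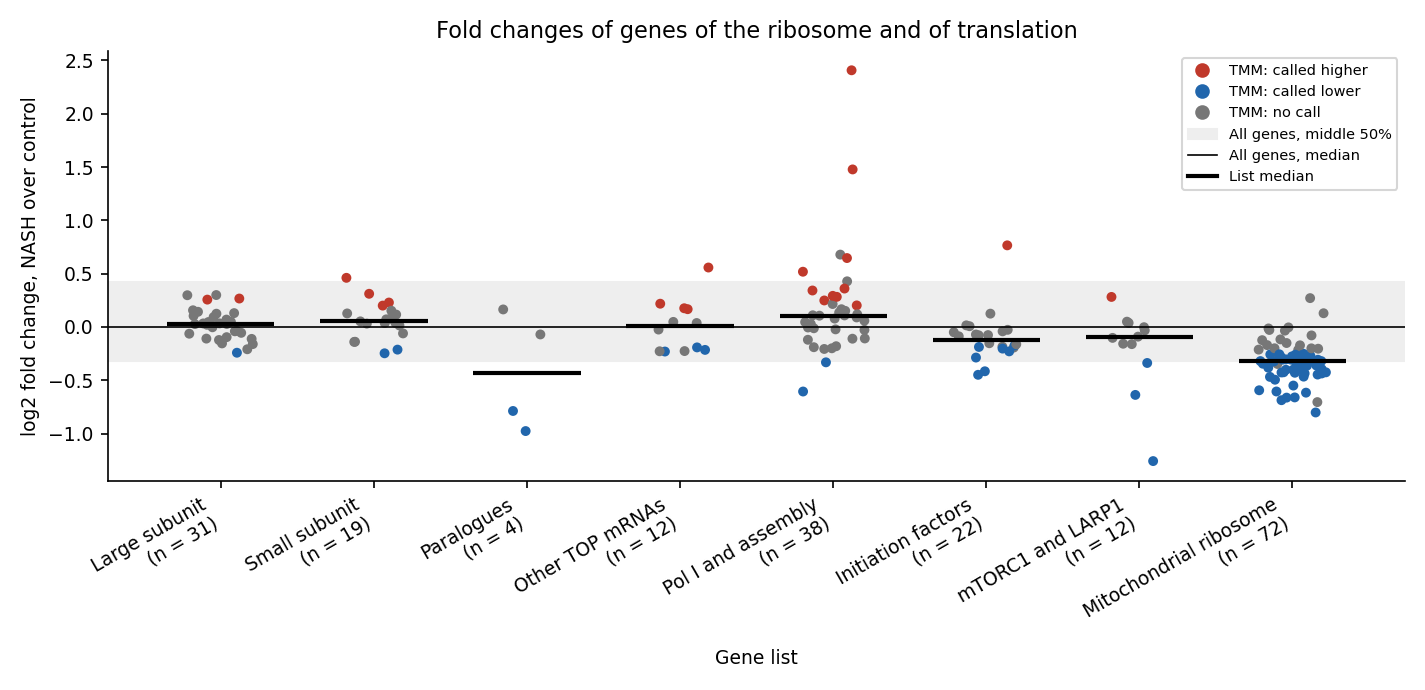
Log2 fold change (TMM) of each gene of the ribosome and translation lists in NASH over controls, coloured by call, with the list median as a thick line. The grey band and thin line are the middle 50% and the median over all genes tested. Medians of the core large and small subunit lie at 0.028 and 0.052, that of the mitochondrial ribosome at −0.32 (0.15 with library size alone).

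Markers of cell types moved between the groups in the same libraries. Of 9 hepatocyte markers in the table, 8 were called lower, and their summed level was between 110490 and 135033 CPM in controls and between 48723 and 74948 CPM in NASH. All 7 stellate cell markers were called higher (580 to 691 against 1175 to 2425 CPM), as were all 4 cholangiocyte markers (63.0 to 93.5 against 264 to 482 CPM), all 3 erythroid markers (57.0 to 171 against 426 to 4524 CPM) and all 4 cycling-cell markers (6.57 to 9.88 against 22.6 to 91.6 CPM). Of the macrophage markers 2 of 7 were called higher and 1 lower (391 to 621 against 583 to 781 CPM), of the B cell markers 3 of 4 were higher (10.4 to 30.5 against 22.5 to 30.95 CPM), and of the T cell markers 1 of 6 was lower (60.1 to 114 against 33.9 to 62.7 CPM). Over all genes 27.9% were called higher and 26% lower. With library size alone, 63.9% of all genes were called higher and 7.66% lower. Under it, 4 of the 9 hepatocyte markers were called lower, and APOA1, APOB, FGA, FGB and SERPINA1 were not called. On that scaling 5 macrophage markers were called higher and 1 lower, 2 T cell markers higher and 1 lower, and the counts of the other lists were as with TMM. SLC4A1 and BUB1 had no count in 3 controls each and TOP2A in 1. The part of these cells in the levels of the ribosomal protein genes was not tested.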

How the data were processed

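Liver RNA of 6 controls and 6 guinea pigs with NASH was sequenced from stranded mRNA libraries. Per the labels and the study's methods, the authors trimmed reads with Trimmomatic 0.38.0, mapped them with HISAT2 2.1.0 to Cavpor3.0, ignored multimapped reads, quantified loci with StringTie 1.3.6 and deposited raw counts without normalisation. The authors also deposited log2 values from the rlog transformation of DESeq2 for 11896 human orthologue symbols with at least 200 counts. Count rows carry no symbols, so the rlog transformation was repeated with DESeq2 until every symbol had a row (largest difference 8e-07, 11031 rows). Counts were tested in R 4.3.3 with edgeR 4.0.16 (TMM, whole-table totals as library sizes, robust glmQLFit, glmQLFTest) over all 11896 symbols. The SE is the absolute log2 fold change over the square root of F. For spread, log2 CPM used a prior count of 2, and for values against the median of the members 0.01 CPM was added for all genes. Between any pair of animals in a group, counts varied at least 41.9 times as much as counting error allows, so no library was present in duplicate. Alternatives were RLE and upper-quartile factors, library size alone, DESeq2 1.42.0, limma-voom (limma 3.58.1), other filters, each count row once, a threshold of 0.01 and leaving out each animal. Procedures were tested on simulated data. Figures were drawn with matplotlib 3.10.9.

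The members, gene lists and tests were chosen with earlier results of these data known. Genes named are the 6 members highest and 6 lowest among those called (here all 11 called, of which 10 are named), paralogues with their parents, reference genes, members on shared rows, the ends of each list and ribosomal genes outside the naming rule. RPL29, RPL15, RPL26 and RPL34, the row of RPL36A with HNRNPH2, and the rows RPL18.1 and RPL28.1 were named after their values were seen. So were further members (RPL10A, RPL8, RPL6, RPS15A and RPS3A) and list genes (EEF1A1, SBDS, RRP9, RRP12, NOP56, NCL, EIF4EBP2, MTOR and LARP1). Values of 3 members are not reported here, although the counts and sums include them. Gene positions are not given, because the annotation at hand is of another assembly.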

Additional observations from a re-analysis of the deposited data

Results flagged for a closer look

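In 8 of the 108 groups of 6 values (54 genes in controls and in NASH), the level of 1 animal lay far from the other 5 by Dixon's criterion, which chance exceeds in about 1 of 20 groups. Of these, 6 were low values of NASH animal 9, in which 5 of the 54 genes were above their own mean over all animals. They were RPL32 at 234 CPM (others 276 to 285), RPL5 at 414 CPM (452 to 467), RPL6 at 321 CPM (360 to 373), RPS13 at 111 CPM (129 to 138), RPS15A at 281 CPM (336 to 355) and RPS3A at 443 CPM (504 to 526). The other 2 were high values in controls, RPL18 at 222 CPM in control 31 (183 to 195) and RPL26 at 460 CPM in control 56 (279 to 336).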

How the results depend on the processing

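The calls of RPSA, RPL36A, RPL31, RPS27L and RPL3L held under every scaling, tool and filter and without any 1 animal. With RLE factors, DESeq2, limma-voom, filterByExpr and each count row once, the same 6 genes were called higher and the same 5 lower. The number called higher moved from 6 to 11 with upper-quartile factors and with every row of at least 1 count, to 51 with library size alone and to 4 at a threshold of 0.01. Over all 11896 genes 6411 were called with TMM, 6365 with upper-quartile factors, 5838 with every row, 8514 with library size alone and 4831 at 0.01. The number lower moved from 5 to 2 under these 3 settings and at a threshold of 0.01, and to 3 without the paralogues, an alternative added after the data were seen. With library size alone the median log2 fold change of members was 0.51, and RPL19 (0.23), RPS13 (0.23), RPS25 (0.26), RPL22 (0.36) and RPL26L1 (0.41) turned positive. RPL26L1 was also above 0 with upper-quartile factors (0.0047) and with every row (0.015). Leaving out single animals gave 4 to 8 genes higher and 4 to 6 lower. Over all 11896 genes, 6046 to 6338 were called in these fits. The median of members was 0.0069 to 0.065, the difference between subunits −0.037 to −0.014, and the log2 fold change of RPL18 −0.0036 to 0.066. The ratio of shares lay between 1.33 and 1.46 in all alternatives. No paired analysis was possible because the animal numbers are not shared between groups. An annotation of the authors' assembly was not used here.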
